A study of Mus musculus with 18 samples.

Results

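A set of 9 genes of adenosine and nucleotide signalling was followed through all 18 libraries: the adenosine receptor genes Adora2a and Adora2b, the ATP-gated channel genes P2rx4 and P2rx7, the nucleotide receptor genes P2ry2, P2ry6 and P2ry14, and the enzyme genes Entpd1 and Ada. They were taken by symbol, 9 of the 24059 symbols in the count tables, and the transcript rows of a symbol were summed. RNA-seq libraries, 3 per group, came from macrophages of C57BL/6J mice, made from bone marrow cells grown with L929-conditioned medium, a source of macrophage growth factor, for 7 days. Reconstituted HDL (rHDL, CSL111), a particle of apolipoprotein A-I and soybean phosphatidylcholine, was given on day 8 for 20 h and washed off before lipopolysaccharide (LPS), the bacterial Toll-like receptor 4 ligand. Cholesterol loading used liposomes of phosphatidylcholine and cholesterol before the rHDL step. How much LPS was used, and for how long, is not stated in the labels.

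The first count table held macrophages given LPS and untreated macrophages. The second table held 4 groups, which were loaded macrophages given rHDL and then LPS, loaded macrophages given LPS, macrophages given rHDL and then LPS without loading, and macrophages given LPS alone. Every group of the second table received LPS, so the effect of rHDL or of loading without LPS was not measured. The labels do not say whether replicates were separate cultures or animals, so p-values measure only the spread between these libraries, which may be technical. The tables were normalized and tested separately.

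Cells release ATP and other nucleotides when stressed or activated, and these act on P2X channels and P2Y receptors at the cell surface. CD39, the product of Entpd1, removes phosphates from ATP and ADP to give AMP, which CD73 turns into adenosine, and adenosine deaminase, the product of Ada, turns adenosine into inosine. Adenosine acts on macrophages mainly through the Gs-coupled receptors encoded by Adora2a and Adora2b, which raise cyclic AMP and restrain inflammatory cytokine production, while ATP acting on P2X7 is a classic trigger of NLRP3 inflammasome activation.

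Depth, replicate agreement and cell identity were examined over the whole tables. Total counts ran between 11450243 and 16835472 per library in the first table and between 9464916 and 15607889 in the second. Replicates of a group correlated at r of 0.988 to 0.996 across genes on the log2 counts-per-million (CPM) scale, which is a description across genes and not across independent samples. Of 8 macrophage markers, 7 had rows. Their summed level was 23500 to 28800 CPM in the LPS libraries and 23800 to 28600 CPM in the untreated libraries of the first table. In the second table it was 13800 to 17800 CPM with loading and rHDL, 16300 to 18100 CPM with loading, 7490 to 9910 CPM with rHDL and 16500 to 18400 CPM with LPS alone. Most of each sum was 1 gene, Lyz2. It averaged 22060 CPM with LPS and 20840 CPM in untreated macrophages of the first table. In the second table Lyz2 averaged 12010, 13500, 6449 and 13920 CPM in the same order of groups. Itgam, the gene of CD11b, was listed at 0 in every library and has only 3 exon bases that no other row shares. Each list of neutrophil, dendritic, lymphoid, stromal and endothelial, or mast, erythroid and megakaryocyte markers summed to at most 144 CPM in any library. In these lists Pecam1, Cd8a, Kit, Hbb-bs, Hba-a1, S100a9 and Pdgfrb were at 0 in every library. They have only 57, 31, 16, 9, 6, 3 and 3 exon bases that no other row shares. The low sums therefore do not show that such cells were absent.

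How much of a gene the tables can count differed between the members. The tables have 1 row per annotated transcript, and none of the 6696 rows that share every exon base with another row held a single count, so a gene's counts depend on exon bases that no other row shares. Adora2a, Adora2b, P2rx4, P2ry2, P2ry6 and Entpd1 each have 1 row with all exon bases unshared, between 1844 bases for Adora2b and 4197 bases for Entpd1. P2rx7 has 5 overlapping rows with 578 unshared bases, against 4936 bases in its longest row. P2ry14, the receptor for UDP-sugars, has 8 rows with 234 unshared bases, and Ada has 2 rows with 3.

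**Figure D1:**
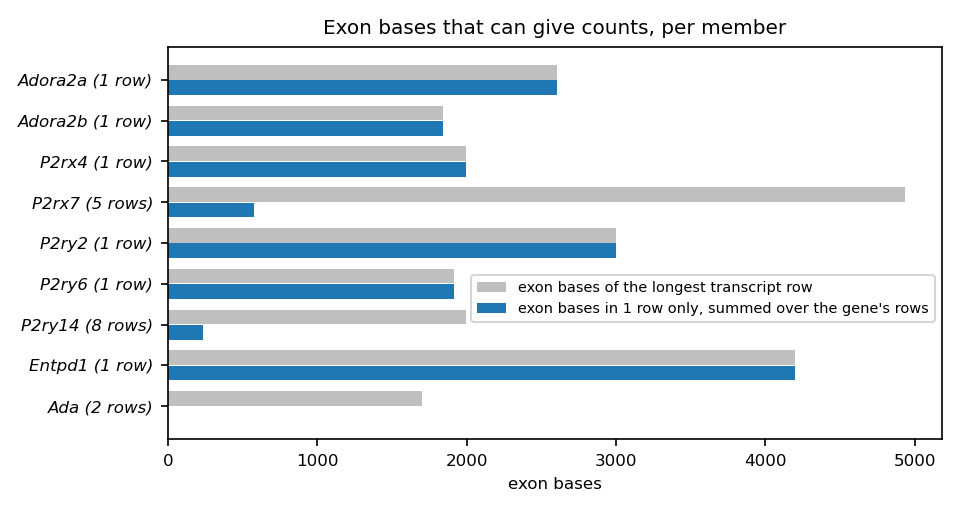
Exon bases per gene (x axis, bases) for the 9 genes (y axis, with the number of transcript rows): the length of the longest row in grey and the bases found in 1 row only, summed over the gene's rows, in blue. In 6 genes both bars are equal, while P2rx7, P2ry14 and Ada keep 578, 234 and 3 countable bases.

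These 3 genes were too thinly counted for any comparison. Cd68, a macrophage marker gene with 434 unshared bases, averaged 340 CPM with LPS alone in the second table. Whether few unshared bases gave the low counts of P2rx7 and P2ry14 was not tested. The low counts of the 3 genes are therefore not read as low expression. P2rx7 had 1, 5 and 4 counts in the LPS libraries and 16, 10 and 5 counts in the untreated libraries of the first table. In the second table it had 0, 4 and 0 counts with loading and rHDL, 1, 1 and 2 with loading, 3, 3 and 6 with rHDL, and 2, 1 and 0 with LPS alone. P2ry14 had 8 counts over the first table and 18 over the second, with at most 5 in a library. Ada had 0 counts in all 18 libraries. The other 6 genes passed the low-count filter in both tables and carry the tests of the set.

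All 6 are placed on the mm10 build by their 1 row in the count tables. Adora2a lies on chromosome 10 at chr10:75316877-75334792 on the plus strand, and Adora2b on chromosome 11 at chr11:62248984-62266452 on the plus strand. P2rx4 lies at chr5:122707557-122729042 on the plus strand. P2ry2 and P2ry6 are on the minus strand of chromosome 7, at chr7:100996572-101011991 and chr7:100937634-100964366. Entpd1 lies at chr19:40659794-40741602 on the plus strand.

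Promoter windows of 300 bases, from 250 before to 50 after an annotated transcript start, were taken from RefSeq on GRCm38.p6, the assembly behind mm10. Windows were matched by symbol for 7 of the 9 genes, not for Adora2a and P2ry6. The 3 windows printed here belong to genes whose response to rHDL differed between loaded and unloaded macrophages, and each is the window whose start is nearest to the start of the counted transcript. Capitals mark matches, on either strand, to the GC box GGGCGG, the E-box CACGTG, the cyclic AMP response element half-site TGACG and the PU.1 core GAGGAA. PU.1 is a factor that macrophage genes commonly use.
P2ry2 promoter, chr7:101011949-101012248, minus strand: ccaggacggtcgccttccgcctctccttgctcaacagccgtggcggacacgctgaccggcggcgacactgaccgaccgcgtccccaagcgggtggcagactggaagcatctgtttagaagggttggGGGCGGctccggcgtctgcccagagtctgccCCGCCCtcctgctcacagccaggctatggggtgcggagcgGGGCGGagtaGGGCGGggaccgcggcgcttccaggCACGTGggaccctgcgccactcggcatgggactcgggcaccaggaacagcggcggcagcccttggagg
Adora2b promoter, chr11:62248734-62249033, plus strand: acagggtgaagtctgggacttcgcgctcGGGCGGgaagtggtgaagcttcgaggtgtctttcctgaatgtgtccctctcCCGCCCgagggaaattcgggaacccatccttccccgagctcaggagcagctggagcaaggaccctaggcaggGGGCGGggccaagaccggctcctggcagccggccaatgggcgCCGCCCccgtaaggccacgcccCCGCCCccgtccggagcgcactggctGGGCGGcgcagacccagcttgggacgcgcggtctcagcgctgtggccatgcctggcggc
Entpd1 promoter, chr19:40659520-40659819, plus strand: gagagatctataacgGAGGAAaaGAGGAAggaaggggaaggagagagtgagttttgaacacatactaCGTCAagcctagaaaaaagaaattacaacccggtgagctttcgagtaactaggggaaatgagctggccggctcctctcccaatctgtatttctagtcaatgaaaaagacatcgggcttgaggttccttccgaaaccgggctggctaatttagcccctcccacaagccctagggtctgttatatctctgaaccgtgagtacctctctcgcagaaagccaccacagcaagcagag

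The printed P2ry2 window holds 4 GC boxes and 1 E-box, the Adora2b window 6 GC boxes, and the Entpd1 window 1 half-site and 2 PU.1 cores with no GC box. None of these matches overlapped another. Among 32851 windows of this length, 35.7% held a GC box, 7.15% an E-box, 20.8% a half-site and 28.3% a PU.1 core. The AP-1 motif TGANTCA and the kappaB motif were also searched and had no match in these 3 windows, against 7.81% and 8.46% of all windows. A match is a run of letters and not a measured binding site. The P2rx4 window, not printed, held 2 half-sites and 1 GC box.

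Per kilobase of unshared exon, P2rx4, an ATP-gated cation channel, had the highest level of the 6 genes in every group. Its level was 201 ± 6.35 CPM per kilobase with LPS and 236 ± 8.29 in untreated macrophages (SD, n = 3). In untreated macrophages P2ry6 followed at 142 ± 1.34 CPM per kilobase, then Entpd1 at 60.2 ± 6.02, P2ry2 at 15.7 ± 0.418, Adora2b at 3.41 ± 0.364 and Adora2a at 1.44 ± 0.142. With LPS the order was different, with Adora2a second at 147 ± 4.80 CPM per kilobase, ahead of P2ry6 at 51.1 ± 7.01, P2ry2 at 45.6 ± 6.39, Entpd1 at 25.0 ± 1.86 and Adora2b at 10.7 ± 1.39. The levels of P2ry6 and P2ry2 in LPS-treated macrophages lie within 1 SD of each other.

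The first comparison asked what LPS does to these genes. Both adenosine receptor genes and P2ry2 rose with LPS, while P2ry6, Entpd1 and, by a small amount, P2rx4 fell. All 6 genes tested passed the threshold of adjusted p under 0.05, 3 higher and 3 lower, in edgeR's quasi-likelihood test with Benjamini-Hochberg adjustment. Across all 9576 genes tested, 72.9% passed, 35.3% higher and 37.6% lower, so passing was the common outcome and the size of a change separates these genes more than the call. In bulk RNA a lower level can mean fewer cells of a type or less RNA per cell, which cannot be told apart.

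Adora2a, a high-affinity adenosine receptor gene, had the largest change of the 6. It measured 370, 380 and 395 CPM in the LPS libraries, against 3.43, 3.64 and 4.15 CPM in the untreated libraries. The groups are separated by about the same wide gap in every library. The log2 fold change was 6.68 ± 0.10 (SE), or 103-fold, with an edgeR adjusted p of 6.81e-12. Adora2b, the gene of a lower-affinity adenosine receptor, measured 21.1, 21.4 and 16.8 CPM with LPS, against 6.86, 5.55 and 6.46 CPM in untreated macrophages. Its groups did not overlap, and it rose 3.15-fold, a log2 change of 1.66 ± 0.14 with an edgeR adjusted p of 8.78e-07.

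Among the nucleotide receptors, P2ry2 and P2ry6 moved in opposite directions. P2ry2, a receptor for ATP and UTP, measured 158, 120 and 132 CPM with LPS, against 47.2, 45.9 and 48.4 CPM in untreated macrophages, and rose 2.90-fold (log2 1.54 ± 0.10, edgeR adjusted p 1.38e-07). P2ry6, the UDP receptor gene, measured 107, 82.5 and 104 CPM with LPS, against 273, 268.5 and 273 CPM in untreated macrophages, and fell 2.77-fold (log2 -1.47 ± 0.10, edgeR adjusted p 1.58e-07). In both genes the 3 untreated libraries lay close together and the LPS libraries were wider apart, with no overlap between groups. P2rx4 measured 397, 414.5 and 390.0 CPM with LPS, against 460, 489 and 460 CPM in untreated macrophages. Its groups did not overlap, but the change was 1.17-fold (log2 -0.23 ± 0.07, edgeR adjusted p 0.0116), and leaving out untreated replicate 2 took it to -0.21 with an adjusted p of 0.0651.

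Entpd1 fell with LPS as P2ry6 did. It measured 113.5, 98.0 and 104 CPM with LPS, against 224, 263.5 and 271 CPM in untreated macrophages. Every LPS library lay well under the lowest untreated library, and the fall was 2.40-fold (log2 -1.27 ± 0.09, edgeR adjusted p 3.64e-07). LPS fold changes depend on scaling, since with library totals as the only scaling the median log2 change of all genes was -0.77 in place of -0.06, and 18.8% of calls were higher in place of 48.4%. Markers of the mast, erythroid and megakaryocyte list summed to 61.4 to 97.7 CPM with LPS, against 13.6 to 29.0 CPM in untreated macrophages, and stromal and endothelial markers to 86.4 to 117 CPM, against 118 to 144 CPM. In these lists Pf4 alone averaged 78.4 CPM with LPS and 20.3 CPM in untreated macrophages, and Vwf alone 98.4 and 132 CPM. The part of these markers in these results was not tested. On the scale of library totals all 6 genes kept their direction, at log2 changes of 5.97 for Adora2a, 0.94 for Adora2b, 0.82 for P2ry2, -0.95 for P2rx4, -2.19 for P2ry6 and -1.98 for Entpd1.

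**Figure D2:**
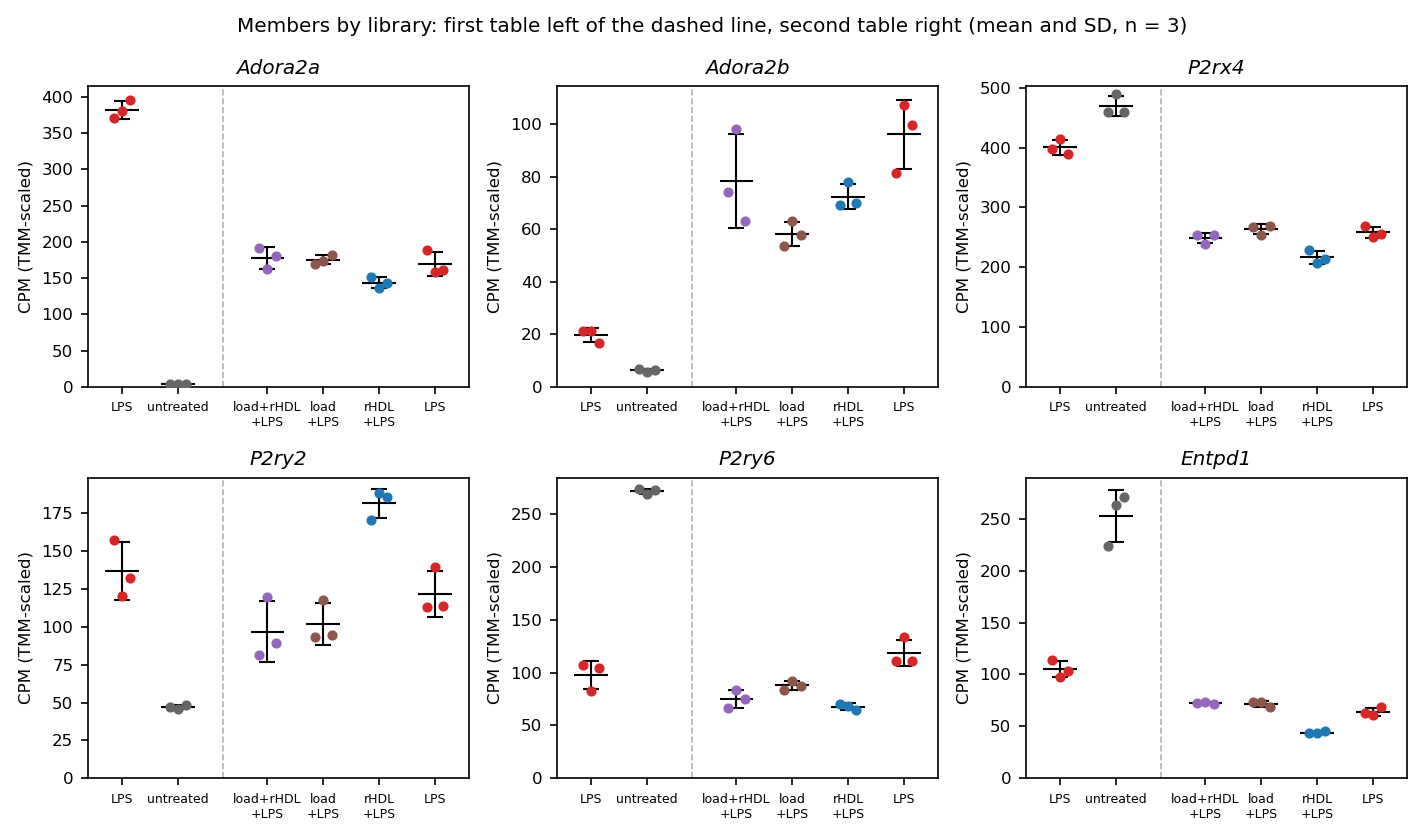
CPM scaled by trimmed mean of M-values (TMM) (y axis) of the 6 tested genes in each library (points), with group mean and SD (n = 3); the dashed line parts the first table from the second, and each table has its own scaling. Adora2a is near 3.74 CPM in untreated macrophages and at 382 CPM with LPS, and Entpd1 is lowest at 44.1 CPM in macrophages given rHDL and then LPS.

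LPS was given alone in both tables, and the levels in those groups were not the same. In the first and the second table Adora2a averaged 382 and 169 CPM, Adora2b 19.8 and 96.1 CPM, P2rx4 401 and 258 CPM, P2ry2 137 and 122 CPM, P2ry6 97.9 and 118.5 CPM, and Entpd1 105 and 64.2 CPM. Adora2b was lower in the first table, and Adora2a lower in the second. These values come from separately scaled tables and were not tested against each other.

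The second comparison asked whether rHDL given before LPS changed the response in macrophages without cholesterol loading. P2ry6, Entpd1, Adora2b, P2rx4 and Adora2a fell, and P2ry2 rose, all by less than 2-fold. All 6 genes passed the threshold, 1 higher and 5 lower. Of 8965 genes tested, 36.5% passed, 18.1% higher and 18.4% lower.

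P2ry6 showed the largest of these changes. It measured 70.7, 68.2 and 64.4 CPM with rHDL and LPS, against 111, 133 and 111 CPM with LPS alone, which is 1.75-fold lower (log2 -0.81 ± 0.09, edgeR adjusted p 1.04e-05). P2ry2 measured 171, 189 and 186 CPM with rHDL and LPS, against 113, 139.5 and 114 CPM with LPS alone, which is 1.49-fold higher (log2 0.57 ± 0.13, edgeR adjusted p 0.00335). In neither gene did a library with rHDL fall within the range of the libraries with LPS alone, and the receptor genes changed in opposite directions.

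Entpd1 measured 43.5, 43.6 and 45.2 CPM with rHDL and LPS, against 63.0, 61.1 and 68.3 CPM with LPS alone. The 3 rHDL libraries lay within a narrow band under every LPS library, and the fall was 1.46-fold (log2 -0.54 ± 0.06, edgeR adjusted p 1.59e-05). P2rx4 measured 228, 207 and 214 CPM with rHDL and LPS, against 268.5, 250.4 and 256 CPM with LPS alone (log2 -0.26 ± 0.06, edgeR adjusted p 0.00490), with no overlap.

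The adenosine receptor genes fell by amounts close to the limit of the test. Adora2b measured 69.2, 78.0 and 70.1 CPM with rHDL and LPS, against 81.5, 107 and 99.8 CPM with LPS alone (log2 -0.41 ± 0.14, edgeR adjusted p 0.0283). Adora2a measured 151, 136 and 143.5 CPM with rHDL and LPS, against 188, 158.5 and 161 CPM with LPS alone (log2 -0.24 ± 0.08, edgeR adjusted p 0.0351). In both genes the lowest library with LPS alone was only a little above the highest library with rHDL. The Adora2a call ended without LPS replicate 1 (-0.15, adjusted p 0.197), rHDL replicate 2 (-0.20, 0.122) or rHDL replicate 3 (-0.23, 0.0861), and without the low-count filter (-0.22, 0.0584). The Adora2b call ended without LPS replicate 2 (-0.32, 0.112), LPS replicate 3 (-0.38, 0.0861), rHDL replicate 1 (-0.39, 0.0673) or rHDL replicate 3 (-0.39, 0.0842).

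With library totals alone as the scaling, the median log2 change of all genes was 0.14 in place of 0.03, and 66.3% of calls were higher in place of 49.5%. Then 3 of the 6 genes passed, P2ry2 at 0.69, P2ry6 at -0.69 and Entpd1 at -0.42, while P2rx4 (-0.14, adjusted p 0.0601), Adora2b (-0.30, 0.143) and Adora2a (-0.12, 0.188) kept their direction without passing. Macrophage markers moved with the same contrast: of 6 tested, 5 fell and 1 rose, with a median log2 change of -1.22, against 0.03 for all genes. Fcgr1, an IgG receptor gene, changed by -2.60 and C1qa, a complement gene, by -2.39, while Cd68, a lysosomal marker gene, changed by 0.51. Neutrophil markers summed to 3.09 to 5.08 CPM with rHDL and LPS, against 12.6 to 16.0 CPM with LPS alone, and stromal and endothelial markers to 107 to 134 CPM, against 56.5 to 58.3 CPM. Mast, erythroid and megakaryocyte markers summed to 31.8 to 42.5 CPM with rHDL and LPS, against 52.0 to 56.5 CPM with LPS alone. Vwf, of the stromal and endothelial list, alone averaged 119.7 CPM with rHDL and LPS and 55.8 CPM with LPS alone. Pf4, of the mast, erythroid and megakaryocyte list, alone averaged 35.4 and 53.5 CPM. The part of these markers in the changes of the 6 genes was not tested.

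The authors' deposited table of this comparison lists 1609 genes, at DESeq2 adjusted p under 0.05 and RPKM ratios of 1.5 or more, or of 0.667 or less. Of the 9 genes, 2 are in this table. In the authors' deposited table P2ry2 has a log2 fold change of 0.56 and P2ry6 one of -0.82.

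The third comparison asked the same of macrophages loaded with cholesterol beforehand. In edgeR's quasi-likelihood test 0 of the 6 genes passed, where 1.02% of all genes tested did. Adora2b and P2ry6 had an unadjusted p under 0.05, and DESeq2 also called 0 of the 6. Adora2b passed at 0.43 in edgeR without the low-count filter (adjusted p 0.0205). None of the 9 genes is in the authors' deposited table of this comparison. It lists 47 genes, at DESeq2 adjusted p under 0.05 and RPKM ratios of 1.5 or more, or of 0.665 or less. The largest change of the 6 tested genes was 1.35-fold, for Adora2b. Their absence can therefore follow from the ratio cut alone and adds nothing to the test.

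Entpd1 measured 72.4, 73.2 and 71.1 CPM with loading, rHDL and LPS, against 73.8, 73.1 and 68.3 CPM with loading and LPS. The groups overlapped almost fully, and the log2 difference was 0.01 with a 95% interval from -0.13 to 0.15. P2ry2 measured 81.5, 120.1 and 89.4 CPM with loading, rHDL and LPS, against 93.2, 118 and 94.96 CPM with loading and LPS, a difference of -0.07 with an interval from -0.36 to 0.22. In both groups replicate 2 was the highest library for this gene.

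Adora2b measured 74.2, 98.1 and 63.1 CPM with loading, rHDL and LPS, against 53.7, 63.1 and 57.7 CPM with loading and LPS. The lowest library with rHDL was level with the highest without it, and the log2 difference of 0.43 had an interval from 0.13 to 0.73 and an edgeR adjusted p of 0.196. P2ry6 measured 66.5, 83.8 and 74.8 CPM with loading, rHDL and LPS, against 83.9, 92.3 and 87.3 CPM with loading and LPS, a difference of -0.23 with an interval from -0.43 to -0.03 and an adjusted p of 0.335. Here the groups just missed overlapping.

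Adora2a averaged 178 ± 15.1 CPM with loading, rHDL and LPS and 175 ± 6.27 CPM with loading and LPS (SD, n = 3 each), a log2 difference of 0.03 with an interval from -0.15 to 0.20. P2rx4 averaged 249 ± 8.87 CPM with loading, rHDL and LPS and 264 ± 8.61 CPM with loading and LPS, a difference of -0.08 with an interval from -0.22 to 0.05. The groups overlapped in both genes.

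**Figure D3:**
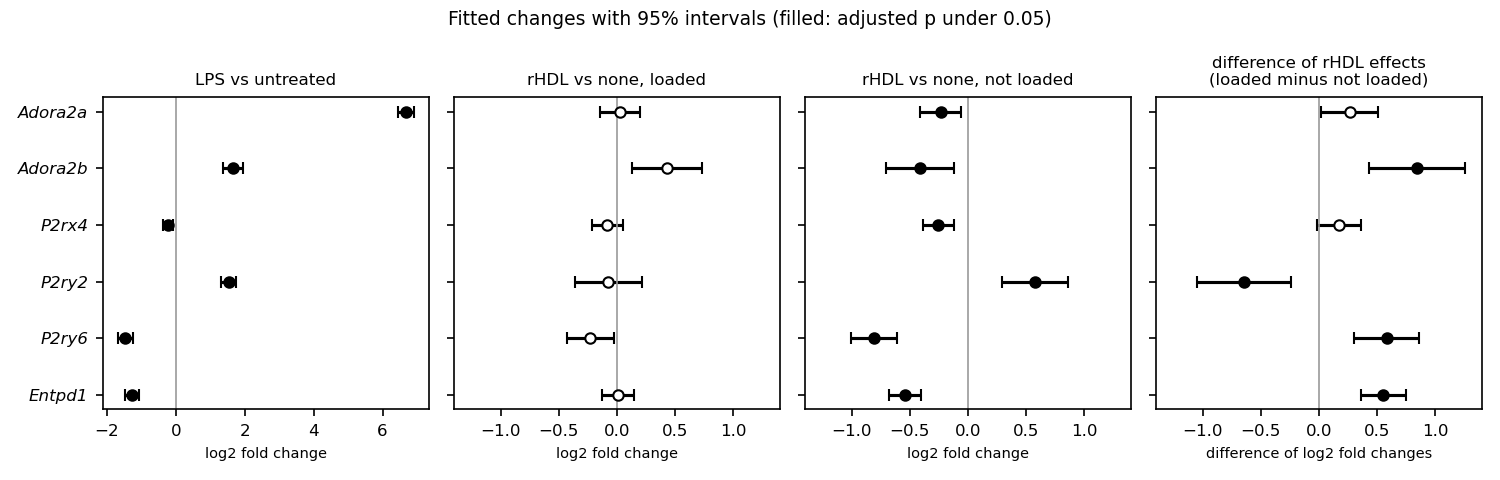
Fitted log2 changes of the 6 genes (points) with 95% intervals (bars) for LPS against untreated, rHDL with loading, rHDL without loading, and the difference between both rHDL effects; filled points have an adjusted p under 0.05. The x axis is log2 fold change, or in the last panel a difference of log2 fold changes, and its range differs between panels. The largest value is 6.68 for Adora2a with LPS. For rHDL after loading no point is filled, and the intervals of Adora2b and P2ry6 alone exclude 0.

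Whether the response to rHDL differed with loading was tested directly, as the rHDL effect in loaded macrophages minus that in unloaded macrophages. It differed for 4 of the 6 genes, 3 upward and 1 downward. Over all genes tested 30.2% passed, 16.0% upward and 14.2% downward. The difference was 0.84 ± 0.19 on the log2 scale for Adora2b (adjusted p 0.00478), 0.58 ± 0.13 for P2ry6 (0.00400) and 0.55 ± 0.09 for Entpd1 (0.000438), and -0.65 ± 0.19 for P2ry2 (0.0181), all by edgeR. For Adora2b the 2 fitted effects had opposite signs, 0.43 with loading and -0.41 without, of which only the effect without loading passed in this fit. That call ended when some single libraries were left out. The Adora2b effect with loading did pass without the low-count filter and with the replicate number as a block. Replicate 2 was the highest Adora2b library in every second-table group.

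Adora2a differed by 0.26, with an interval from 0.02 to 0.51 and an adjusted p of 0.104, which became 0.33 and 0.0397 without loading, rHDL and LPS replicate 2, and P2rx4 by 0.17, with an interval from -0.02 to 0.36 and an adjusted p of 0.159. The P2ry2 call ended without LPS replicate 1 (-0.59, adjusted p 0.0513), loading and LPS replicate 2 (-0.52, 0.0601) or loading, rHDL and LPS replicate 3 (-0.58, 0.0536). The P2ry6 difference was 0.41 with an adjusted p of 0.0544 when libraries were scaled by their totals alone, a scale on which the median of all genes was -0.20 in place of -0.03 and 32.4% of calls were upward in place of 53%. The macrophage markers differed in the same contrast, 5 of 6 upward and 1 downward with a median of 1.09. Their part in the differences of the 6 genes was not tested.

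Loading before LPS was set against LPS alone, which asked whether cholesterol changed these genes under LPS without rHDL. Adora2b and P2ry6 fell, and the other 4 genes did not pass. The 2 calls, both lower, stand beside 8.57% of all genes tested that passed and 4.57% that passed downward. Adora2b measured 53.7, 63.1 and 57.7 CPM with loading and LPS, against 81.5, 107 and 99.8 CPM with LPS alone, which is 1.66-fold lower (log2 -0.73 ± 0.14, edgeR adjusted p 0.00536). P2ry6 measured 83.9, 92.3 and 87.3 CPM with loading and LPS, against 111, 133 and 111 CPM with LPS alone, which is 1.35-fold lower (log2 -0.43 ± 0.09, edgeR adjusted p 0.0101). In neither gene did the groups overlap. Neutrophil markers summed to 8.24 to 10.1 CPM with loading and LPS, against 12.6 to 16.0 CPM with LPS alone, and Csf1r, the macrophage growth factor receptor gene, changed by -0.24 ± 0.06 (edgeR adjusted p 0.0310), 1 of 6 macrophage markers that passed. The part of these markers was not tested. With library totals alone the P2ry6 change was -0.36 with an adjusted p of 0.0560, and 71.1% of calls over all genes were higher in place of 46.6%.

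The remaining genes gave smaller values in that comparison. Entpd1 had a log2 difference of 0.16 with an interval from 0.03 to 0.30 (edgeR adjusted p 0.139), and P2ry2 one of -0.26 with an interval from -0.55 to 0.02 (0.253). Adora2a differed by 0.05 with an interval from -0.13 to 0.22, and P2rx4 by 0.03 with an interval from -0.10 to 0.16. The Entpd1 groups touched at 68.3 CPM without crossing.

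Among macrophages that received rHDL, loading was set against no loading. Entpd1, Adora2a and P2rx4 were higher with loading and P2ry2 was lower. That is 4 of 6 genes, 3 higher and 1 lower, where 35.6% of all genes passed, 18.5% higher and 17.1% lower. Entpd1 measured 72.4, 73.2 and 71.1 CPM with loading, rHDL and LPS, against 43.5, 43.6 and 45.2 CPM with rHDL and LPS, which is 1.64-fold higher (log2 0.71 ± 0.06, edgeR adjusted p 1.04e-06). P2ry2 measured 81.5, 120.1 and 89.4 CPM with loading, rHDL and LPS, against 171, 189 and 186 CPM with rHDL and LPS, which is 1.88-fold lower (log2 -0.91 ± 0.13, edgeR adjusted p 9.87e-05). Both genes showed wide gaps between the groups. The macrophage marker sum was 13800 to 17800 CPM with loading, rHDL and LPS, against 7490 to 9910 CPM with rHDL and LPS, of which Lyz2 averaged 12010 and 6449 CPM. Of 6 macrophage markers tested, 5 were higher with loading and 1, Cd68, was lower. Stromal and endothelial markers summed to 34.2 to 42.7 CPM, against 107 to 134 CPM, of which Vwf averaged 35.9 and 119.7 CPM. Mast, erythroid and megakaryocyte markers summed to 56.0 to 96.0 CPM, against 31.8 to 42.5 CPM, of which Pf4 averaged 75.4 and 35.4 CPM. The part of these markers was not tested.

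Adora2a was 1.24-fold higher (log2 0.31 ± 0.08, edgeR adjusted p 0.00815), with 192, 162 and 180.1 CPM with loading, rHDL and LPS, against 151, 136 and 143.5 CPM with rHDL and LPS. P2rx4 was 1.15-fold higher (log2 0.20 ± 0.06, edgeR adjusted p 0.0192), and its call ended without rHDL replicate 2 (adjusted p 0.0865) or rHDL replicate 3 (0.0678), in the 2 groups alone (0.0798), without the low-count filter (0.0857), and with library totals alone (0.11, 0.141). Adora2b and P2ry6 differed by 0.11 and 0.15, with intervals from -0.18 to 0.41 and from -0.05 to 0.34. On library totals 39.4% of calls over all genes were higher in place of 51.9%.

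The order of the 4 second-table groups differed from gene to gene. Entpd1 was highest with loading and rHDL and with loading, which overlapped, then lower with LPS alone and lowest with rHDL, with no overlap between these last steps. P2ry6 ran from LPS alone through loading, neither overlapping the next, down to loading with rHDL and rHDL without loading, which overlapped. P2ry2 was highest with rHDL, and the ranges of its other 3 groups overlapped in turn. The second-table group means of each gene spanned less than 1 on the log2 scale, between 0.29 for P2rx4 and 0.92 for P2ry2, so no gene with a like pattern was sought.

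Other genes of the pathway were counted from lists that hold none of the 9 genes. For rHDL without loading, the base for all these lists is the 8965 genes tested. Of these 36.5% passed, 18.1% higher and 18.4% lower, with a median log2 change of 0.03 over all genes. Of 15 other adenosine and P2 receptor symbols, 14 had rows and 3 were tested in the second table. With rHDL before LPS and no loading, P2ry12 and P2ry13, Gi-coupled ADP receptor genes, fell. P2ry13 averaged 1.26 ± 0.440 CPM with rHDL and LPS and 4.73 ± 1.16 CPM with LPS alone (SD, n = 3 each), a log2 change of -1.86 ± 0.35. P2ry12 changed by -2.98 ± 0.56 from a level of 0.997 CPM with LPS alone, and Adora3 did not pass. After loading none of the 3 passed. The rHDL effects differed upward with loading in all 3, by 1.99 for P2ry13, 2.95 for P2ry12 and 1.75 for Adora3, under every scaling tried. Over all genes tested 16.0% differed upward. The P2ry12 and Adora3 differences rest on few counts.

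Among the other ecto-enzymes, 7 of 16 were tested, 4 fell with rHDL without loading and 1 rose, with a median log2 change of -1.29. Cd38, the main NAD-consuming ecto-enzyme gene of macrophages, averaged 28.1 ± 2.01 CPM with rHDL and LPS and 84.1 ± 4.08 CPM with LPS alone, a change of -1.58 ± 0.08 with an edgeR adjusted p of 5.65e-09. Bst1, a gene of the same family, changed by -1.29, Acpp, a phosphatase gene, by -1.66, and Enpp4 by -1.83, while Enpp1, which makes AMP and pyrophosphate from ATP, rose. Loaded macrophages had 1 call in the list, Cd38 at -0.35 ± 0.07. Nt5e, the gene of CD73, had 9 counts over the first table and 4 over the second with 3580 unshared bases, and was not tested.

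In salvage, breakdown and transport of adenosine, 8 of 15 genes were tested with rHDL without loading, 4 fell and none rose, with a median of -0.76. Slc28a2, a concentrative nucleoside transporter gene, changed by -0.87, and Xdh, the xanthine oxidoreductase gene, by -0.89. Pnp, the purine nucleoside phosphorylase gene, averaged 647 ± 106 CPM with rHDL and LPS and 1239 ± 163 CPM with LPS alone, a change of -0.94, and its near copy Pnp2 changed by -1.90. Reads of Pnp and Pnp2 could be shared between both copies, so their separate values are uncertain. All 4 effects differed upward with loading, by 0.99 for Slc28a2, 1.01 for Xdh, 1.11 for Pnp and 2.05 for Pnp2. No other gene of the 8 tested differed. Over all genes tested 30.2% passed for this difference, 16.0% upward. The fall without loading enters the difference with its sign reversed, so the upward differences are not a separate result. None of the list passed in loaded macrophages.

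**Figure D4:**
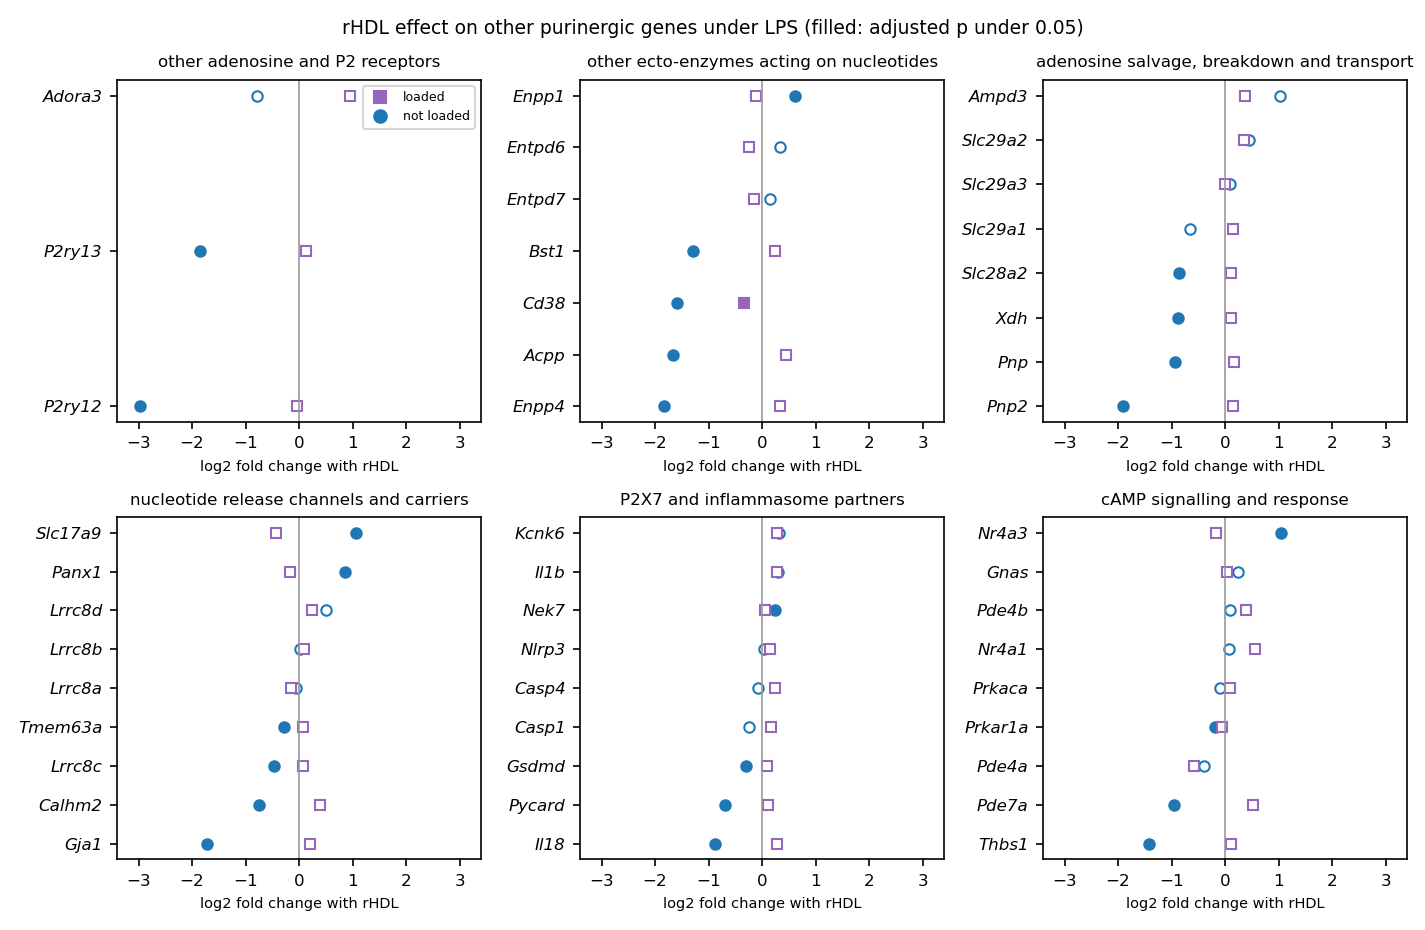
Fitted log2 change with rHDL (x axis) of tested genes in 6 pathway lists, in loaded macrophages (squares) and in macrophages without loading (circles), all given LPS; filled symbols have an adjusted p under 0.05. Cd38 at -0.35 is the one filled square, while filled circles run from -2.98 for P2ry12, which rests on few counts, to 1.06 for Slc17a9.

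Nucleotide release genes went both ways, 2 higher and 4 lower of 9 tested. Slc17a9, the vesicular nucleotide transporter gene, rose by 1.06 ± 0.23 and Panx1, a gene of an ATP-releasing channel, by 0.86 ± 0.12, while Gja1, the connexin 43 gene, changed by -1.72 ± 0.12 and Lrrc8c, a volume-regulated anion channel subunit gene, by -0.48 ± 0.10. Of P2X7 and inflammasome partners, 9 were tested, 2 rose and 3 fell. Il1b rose by 0.30, to 7952 ± 378 CPM with rHDL and LPS, against 6447 ± 338 CPM with LPS alone. Pycard, the inflammasome adaptor gene, changed by -0.69, Il18 by -0.87 and Gsdmd, the pore-forming gasdermin D gene, by -0.30. Of cyclic AMP genes, 9 were tested, 1 rose and 3 fell. Nr4a3, a cyclic AMP-inducible nuclear receptor gene, rose by 1.04 ± 0.11 to 20.4 ± 1.14 CPM with rHDL and LPS, against 9.87 ± 1.13 CPM with LPS alone, and Thbs1 changed by -1.42 ± 0.09. The medians of these 3 lists were -0.05, -0.07 and -0.10, and turned to 0.06, 0.05 and 0.01 when libraries were scaled by their totals alone.

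The same lists were also counted under LPS against untreated, where every list had calls in both directions. Over all 9576 genes tested there, 72.9% passed, 35.3% higher and 37.6% lower. Of the release genes 4 rose and 5 fell, and of the inflammasome partners 7 rose and 1 fell, including Nlrp3 at 2881 ± 161 CPM with LPS and 128.5 ± 12.3 CPM in untreated macrophages (SD, n = 3 each). Of 7 ecto-enzymes 3 rose and 3 fell, with Cd38 at 73.0 ± 4.83 CPM with LPS and 0.514 ± 0.125 CPM in untreated macrophages. Of 9 salvage genes 5 rose and 3 fell, with Pnp at 1937 ± 261 CPM with LPS and 100.4 ± 3.38 CPM in untreated macrophages. Of 11 cyclic AMP genes 4 rose and 4 fell, with Nr4a3 at 23.5 ± 4.61 CPM with LPS and 0.191 ± 0.131 CPM in untreated macrophages. Of the 4 other receptors 1 rose, P2ry13 at a log2 change of 4.00, and 1 fell, P2ry1 at -2.57. P2ry1 has 275 unshared bases and averaged 0.139 ± 0.0479 CPM with LPS and 0.846 ± 0.173 CPM in untreated macrophages, so its change rests on few counts. The medians ran from -0.47 for the cyclic AMP genes to 1.72 for the inflammasome partners, against -0.06 for all genes, and with library totals alone only the inflammasome partners kept a median above 0, at 1.01.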

How the data were processed

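RNA-seq was done on 18 libraries, 3 in each of 6 groups taken from the sample titles and treatments. The submitters' processing notes name cutadapt, HISAT2, featureCounts of Subread, DESeq2 and the mm10 build. Their versions, and whether counting used strand, are not stated in the labels. The authors deposited raw read counts per transcript row in 2 tables, and filtered result tables with mean signal, log2 fold changes, test scores, p-values and ratios of RPKM.

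Counts were summed per symbol and filtered with filterByExpr (minimum count 10), scaled by TMM and tested with edgeR 4.0.16 in R 4.3.3 by the quasi-likelihood F test, two-sided, with Benjamini-Hochberg adjustment over all genes tested and a threshold of 0.05. The 6 libraries of the first table and the 12 of the second were fitted apart, with no covariate. A standard error is the absolute log2 fold change divided by the square root of F. CPM are TMM-scaled counts of the table's own fit. DESeq2 1.42.0, its size factors in edgeR, library totals alone, no filter, single transcript rows, the 2 groups alone, the replicate number as a block and each library left out in turn were alternatives. The fit was tested on simulated data with known changes.

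The 9 genes and the pathway and marker lists were chosen with earlier results of these data known. All 9 genes are named in every comparison; of each list, called genes may be named, and the 4 with the smallest p get values. Genes of like pattern were to be named only for a gene whose group means span at least 1 on the log2 scale. Replicate numbers come from the titles. Deviations of libraries with the same number from their group means correlated at 0.177 to 0.436 between loading with rHDL and rHDL without loading. All were over 0.1, the limit set for treating the numbers as pairs, but the labels do not state that replicates were paired. The replicate block changed no call of the 6 genes in that comparison. The values printed for it come from the fit without the block.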

Additional observations from a re-analysis of the deposited data

Results flagged for a closer look

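The effect of rHDL before LPS differed between loaded and unloaded macrophages in 4 of the 6 tested genes, by the contrast of both effects in edgeR's quasi-likelihood fit of the 12 second-table libraries. Over all 8965 genes tested 30.2% passed, 16.0% upward and 14.2% downward. The difference, loaded minus not loaded, was 0.84 on the log2 scale for Adora2b, -0.65 for P2ry2, 0.58 for P2ry6 and 0.55 for Entpd1. For Entpd1 the fitted rHDL effect was 0.01 with loading and -0.54 without, for P2ry6 -0.23 and -0.81, for P2ry2 -0.07 and 0.57, and for Adora2b 0.43 and -0.41.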

How the results depend on the processing

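Of the log2 changes of the 6 genes, 232 recomputed without a library and 225 under another setting kept their direction and side of the threshold, while 13 and 9 no longer passed, 1 and 4 newly passed, and 6 and 2 changed sign. The counts of genes passing ran, on leaving out single libraries, from 6537 to 7132 for LPS, 2563 to 3139 for rHDL, 30 to 123 for rHDL after loading, 350 to 594 for loading, 2507 to 3313 for loading with rHDL and 2112 to 2822 for the difference of rHDL effects. Of the 6 genes, 5 to 6, 4 to 5, 0 to 0, 2 to 2, 3 to 4 and 3 to 5 then passed in the same order of comparisons. For rHDL after loading 91 genes passed, with 42 in the 2 groups alone, 177 by DESeq2, 176 without a filter and 486 with the replicate block, and Adora2b was the 1 gene of the 6 that passed without a filter or with the block (0.42, adjusted p 0.0118). For loading 768 genes passed, with 1216 in the 2 groups alone and 1651 with the replicate block. With library totals alone 3 of the 6 genes passed for rHDL, where 3780 of all 8965 did, and 1 for loading, where 880 did. Some values near 0 changed sign. With library totals the rHDL effect after loading was -0.0321 for Adora2a and -0.0453 for Entpd1. Leaving out single libraries, it ran from -0.0273 to 0.0909 for Adora2a, -0.2519 to 0.0469 for P2ry2 and -0.0236 to 0.0335 for Entpd1, the loading effect on Adora2a from -0.0015 to 0.1263, and the change of Adora2b for loading with rHDL against rHDL from -0.0693 to 0.2581. The causes were not tested. Same-numbered libraries correlated at -0.08 to 0.07 for LPS, -0.03 to 0.24 for rHDL, -0.01 to 0.28 for rHDL after loading and 0.05 to 0.25 for loading, where 6 of 6 libraries correlated best with their own number. With the replicate block the difference of rHDL effects on Adora2a passed at 0.26 (adjusted p 0.0303) and the loading effect on P2ry2 at -0.26 (0.0208).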
